A study of Arabidopsis thaliana with 15 samples.

Results

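Hypocotyl explants that had spent 8 days in culture at 17 °C, the last 4 of them on shoot-inducing medium, were compared with explants frozen at 0 h. The comparison took 6 of the 15 samples of the series, 3 per group, chosen by their labels, and it covered every gene in the deposited count table. The plants were Arabidopsis thaliana of the ecotype Col-0, with no transgene or mutation named in the labels. The 0 h explants came from 7-day-old seedlings kept in the dark at 22 °C on medium with 1% sucrose, and were cut from the hypocotyl between about 3 mm above the root and about 5 mm below the shoot. The cultured explants had the same origin. They stayed for 4 days on callus-inducing medium (CIM) with 0.5 mg/L of the synthetic auxin 2,4-D and 0.1 mg/L of the cytokinin kinetin. They then stayed for 4 days on shoot-inducing medium (SIM) with 0.5 mg/L of the cytokinin 2-iP and 0.15 mg/L of the auxin IAA. Both media held 20 g/L glucose, and culture was in continuous light at 17 °C. About 100 explants were pooled for each sample. The 3 samples taken after CIM at 17 °C are given beside the others to place a change in time. Time in culture and since cutting, light, temperature, sugar and hormones all differed between the 2 groups, so their parts in any difference cannot be told apart.

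An etiolated hypocotyl is an embryonic stem that lengthens by cell expansion in the dark, with plastids that have not greened. On auxin-rich medium, cells next to its vascular tissue divide and form a callus that resembles a young lateral root. On cytokinin-rich medium, parts of that callus can acquire shoot meristem identity, which depends on the homeodomain protein WUSCHEL (WUS). The same tissue turns green in light and can also form roots.

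Total counts per library were 3661608, 3699289 and 3745747 at 0 h and 4159645, 3679115 and 4037643 after SIM. Levels are in CPM, the usual depth-scaled counts, computed here on TMM-scaled library sizes, and are not corrected for gene length, so they compare samples and not genes. Fold changes are log2 values from edgeR's quasi-likelihood fit, with their standard error, and p-values were adjusted over all genes by Benjamini and Hochberg. A gene was said to rise or fall where its adjusted p was under 0.05. No label states if a group's 3 samples were grown apart from one another. The p-values therefore rest on a spread between libraries that may be technical. That spread was small. After SIM, 2 to 8 genes per pair of libraries differed beyond a binomial test, with a mean chi-square of 0.717 to 0.854, below the value of 1 that counting noise alone gives. No pair stood out from the others, but libraries split from a single pool would show this too. The check therefore cannot decide if the samples were separate, and each library was counted as a sample. At 0 h, 153 to 187 genes per pair differed beyond the binomial test, with a mean chi-square of 1.23 to 1.71. The counts may be of distinct read positions and not of all reads, since in the 6 libraries a count exceeded the gene's length in bases for 2 genes only. Levels and folds of high-count genes could then be understated, and a correction for it moved 3 of 286 named genes by over 1.5 times, CHS (log2 10.02 to 10.65), ATPMEPCRD (-8.26 to -9.06) and AT2G43150 (-0.97 to -1.61). Transcripts of seed maturation set 1 library at 0 h apart. The 20 such genes, among them storage proteins and oleosins, summed to 4678, 104 and 3254 counts at 0 h and to 7, 2 and 4 counts after SIM. Only 2 of them passed the filter on low counts. Fewer cells of a type and less RNA per cell cannot be told apart in these bulk samples.

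Most of the transcriptome differed between the groups. Of 20704 genes tested, 15842 (76.5%) were called, 8023 higher and 7819 lower after SIM, and the 6 libraries fell into groups without overlap for 16489 genes (79.6%). Because so many were called, the counts of members below are of genes that also changed at least 2-fold, a log2 change of 1 or more. There were 3165 such rises (15.3% of genes tested) and 3127 such falls (15.1%). Each count of list or family members below is to be read beside these shares. A list with shares near them moved no more than genes at large. At least 4-fold changes numbered 1395 up and 1449 down, and at least 8-fold changes 807 up and 882 down. The median log2 change over all genes was 0.03. The step from 0 h to CIM held 3266 rises (15.8%) and 3254 falls (15.7%) of at least 2-fold, and the step from CIM to SIM held 1559 rises (7.53%) and 1606 falls (7.76%). The 2 steps share the CIM libraries, and the net change shares libraries with each, so their values are set side by side without a test.

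**Figure D1:**
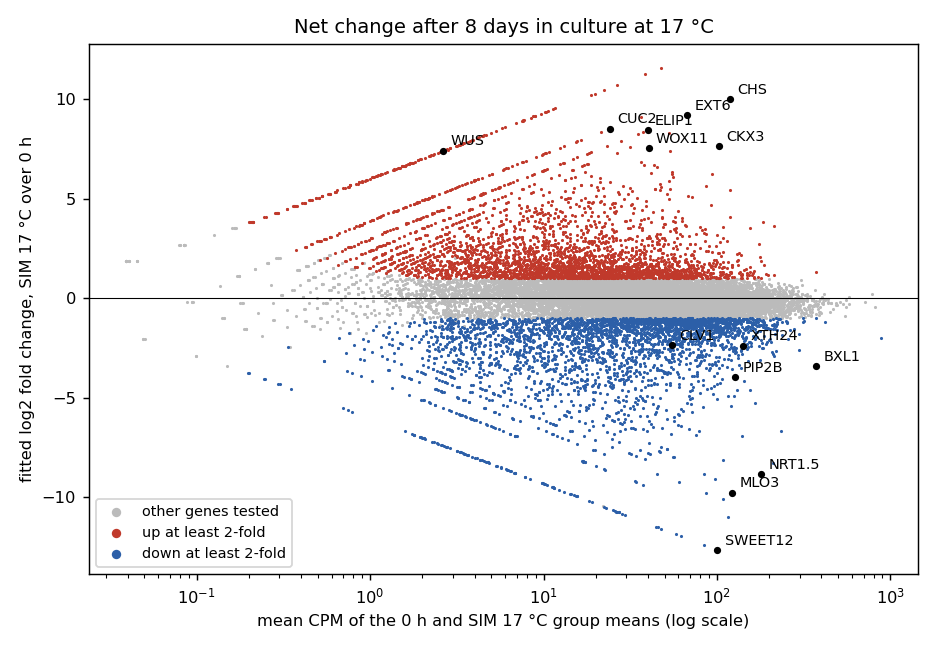
Each point is a gene tested, with the mean of its 2 group levels in CPM on a log axis and its fitted log2 fold change, SIM at 17 °C over 0 h, on the vertical axis. Genes at least 2-fold up (red, 3165) and down (blue, 3127) extend about equally far, and the slanted lines of points are genes with 0 or very few counts in 1 group, whose fitted change is no bound.

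The promoters shown next belong to the genes that led the ranking of rises and of falls, so that their sequence can be read beside their values. The ranking used the ratio of group levels, with 3 counts over the group as the floor. Each run is the 250 bases before the gene's start in the deposited table, read from the RefSeq TAIR10.1 genome, where 100% of the nuclear genes matched by identifier overlap the same gene at the table's coordinates. Capitals mark TATAAA, the core of a TATA box, ACGTGG, part of the abscisic acid response element, and ACCGAC, the core that cold and drought factors of the CBF/DREB family bind, on either strand. MLO3 and SWEET11 hold none of these 3 motifs in their window, and CACGTG, which was searched as well, was found in none of the 6.
CHS (chr5:4488438-4488687, plus strand): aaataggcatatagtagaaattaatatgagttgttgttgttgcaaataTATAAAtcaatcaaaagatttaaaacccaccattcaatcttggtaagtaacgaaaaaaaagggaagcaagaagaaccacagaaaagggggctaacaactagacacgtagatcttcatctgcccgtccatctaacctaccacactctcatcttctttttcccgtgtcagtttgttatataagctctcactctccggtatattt
EXT6 (chr2:10622203-10622452, plus strand): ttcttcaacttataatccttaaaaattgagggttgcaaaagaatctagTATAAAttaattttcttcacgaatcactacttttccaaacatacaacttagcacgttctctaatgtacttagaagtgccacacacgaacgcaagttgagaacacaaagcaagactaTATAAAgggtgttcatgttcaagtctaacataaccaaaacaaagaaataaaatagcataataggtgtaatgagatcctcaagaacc
FLS1 (chr5:2803707-2803956, plus strand): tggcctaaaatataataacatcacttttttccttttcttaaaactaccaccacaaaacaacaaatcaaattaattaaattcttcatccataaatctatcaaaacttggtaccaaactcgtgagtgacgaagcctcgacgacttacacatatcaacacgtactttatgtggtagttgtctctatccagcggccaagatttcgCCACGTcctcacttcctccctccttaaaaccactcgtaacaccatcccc
MLO3 (chr3:16617294-16617543, plus strand): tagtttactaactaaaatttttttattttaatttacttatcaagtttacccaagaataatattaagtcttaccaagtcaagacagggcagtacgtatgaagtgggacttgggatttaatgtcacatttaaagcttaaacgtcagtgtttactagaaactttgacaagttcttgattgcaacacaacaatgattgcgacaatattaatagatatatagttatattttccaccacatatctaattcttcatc
SWEET11 (chr3:18054756-18055005, minus strand): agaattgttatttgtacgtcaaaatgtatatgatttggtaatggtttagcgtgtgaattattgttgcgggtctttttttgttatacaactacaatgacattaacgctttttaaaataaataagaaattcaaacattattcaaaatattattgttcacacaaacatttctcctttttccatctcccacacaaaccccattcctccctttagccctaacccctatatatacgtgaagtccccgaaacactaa
RD29B (chr5:21236806-21237055, plus strand): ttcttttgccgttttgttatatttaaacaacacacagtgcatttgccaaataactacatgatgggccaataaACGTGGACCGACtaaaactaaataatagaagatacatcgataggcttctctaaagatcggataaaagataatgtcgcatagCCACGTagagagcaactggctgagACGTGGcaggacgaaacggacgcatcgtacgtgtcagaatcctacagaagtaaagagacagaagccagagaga
Across the 20703 promoters of tested genes, TATAAA stood in 46.3%, ACGTGG in 10.6%, ACCGAC in 5.73% and CACGTG in 8.64%. Among the 1395 genes up at least 4-fold the shares were 55.1%, 12%, 4.01% and 8.17%, and among the 1449 genes down at least 4-fold they were 56.9%, 10.8%, 4.76% and 9.32%. TGGGCC and TGGGCT, motifs of growth and ribosomal gene promoters, stood in 17.7% and 15.5% of all promoters, in 7.03% and 6.81% of those of the rises and in 5.11% and 6.07% of those of the falls. AAACCCTA, the telo box, stood in 5.96%, 6.16% and 1.93%, and CATGCA, the RY core, in 6.68%, 11.7% and 12.1%, in the same order. These shares are descriptions without a test, and a match is not a binding site.

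Genes of root hair growth had the highest median change of the lists examined, and 12 of their rises came on SIM. Many genes annotated as extensin-like rose with them. Root hairs are tubular outgrowths of root epidermal cells, and the list held their regulators and effectors. Of the 15 genes listed, 14 were tested, 13 of them rose at least 2-fold and 0 fell, with a median log2 change of 6.58 (5.42 when genes with few counts are set to their bound). From 0 h to CIM 3 of them rose at least 2-fold, and from CIM to SIM 12 did. Of the 14, 10 held 3 counts or fewer over 1 of the 2 groups compared. A gene this low in a group passes the filter only through other groups, so being tested and changing are not independent. The summed level of the list was 21.2, 38.7 and 19.0 CPM at 0 h, 40.1, 38.9 and 35.2 CPM after CIM and 397, 366 and 298 CPM after SIM. LRX2, a wall protein of growing hairs, did not pass the test (log2 0.27, adjusted p = 0.433) and made up much of the sum at 0 h, with a mean of 16.8 CPM.

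RHD6 (AT1G66470), the basic helix-loop-helix regulator that starts hair formation, was at 0.908, 0.596 and 1.46 CPM at 0 h and at 15.6, 11.9 and 10.3 CPM after SIM. All SIM libraries were above all 0 h libraries, and groups did not overlap for 79.6% of all genes tested. The log2 change of RHD6 was 3.63 ± 0.31 (adjusted p = 1.68e-12). COW1, a phosphatidylinositol transfer protein of the hair tip, went from 0, 0.298 and 0.293 CPM to 22.0, 21.9 and 16.6 CPM. The expansin gene EXPA7, which loosens walls of hair cells, had 0 counts in the 0 h and the CIM libraries and stood at 20.4 ± 2.89 CPM (SD, n = 3) after SIM, at least 68.8-fold higher. Its relative EXPA18 had 0 counts at 0 h and stood at 17.0, 16.0 and 12.0 CPM after SIM, at least 50.3-fold higher. In each of these 4 genes the third SIM library was the lowest of the group.

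The root hair element, a promoter motif first described in root hair genes, EXPA7 among them, was searched in the same 250 bases on both strands. It stood in 7 of the 15 root hair genes (EXPA7, EXPA18, PRP3, RHS12, RHS13, LRX1 and MRH6) and in 0.638% of all promoters of tested genes, 132 in number. The list and the motif are not independent, since root hair genes were used to define it. Among genes up at least 4-fold it stood in 1.65%, and among those down at least 4-fold in 0.759%. The promoters of 3 of the 7, picked for their fitted change after the values were seen, are shown with the element in capitals.
RHS12 (chr3:3352039-3352288, plus strand): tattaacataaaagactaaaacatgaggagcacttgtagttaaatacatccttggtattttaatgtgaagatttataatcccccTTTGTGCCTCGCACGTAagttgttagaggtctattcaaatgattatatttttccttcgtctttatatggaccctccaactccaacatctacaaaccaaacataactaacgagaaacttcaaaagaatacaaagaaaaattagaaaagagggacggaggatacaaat
RHS13 (chr4:993039-993288, minus strand): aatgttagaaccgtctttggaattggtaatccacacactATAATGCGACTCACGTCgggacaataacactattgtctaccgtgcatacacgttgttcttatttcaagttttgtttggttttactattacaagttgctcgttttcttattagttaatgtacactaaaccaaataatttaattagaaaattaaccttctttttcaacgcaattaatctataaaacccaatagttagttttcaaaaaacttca
EXPA7 (chr1:4276269-4276518, plus strand): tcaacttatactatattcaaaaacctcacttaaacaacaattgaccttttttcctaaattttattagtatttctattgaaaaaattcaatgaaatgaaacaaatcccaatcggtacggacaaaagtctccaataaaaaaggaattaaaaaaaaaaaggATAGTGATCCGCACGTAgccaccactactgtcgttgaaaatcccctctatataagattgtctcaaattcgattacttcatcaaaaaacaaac
RHS12 and RHS13, named for their expression in root hairs, rose from 0 counts to 23.2 and 20.7 CPM on average, at least 78.0-fold and 69.3-fold.

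Extensins are rod-like hydroxyproline-rich proteins that are cross-linked into the wall. By annotation, 53 genes were extensin-like. They include members of the Pollen Ole e 1 allergen and extensin family, such as AT2G47540, which need not be proteins of this kind. Of the 53, 34 were tested, and 17 rose and 7 fell at least 2-fold, with a median log2 change of 0.92. On CIM 4 rose and 10 fell, and on SIM 16 rose and 4 fell. EXT6 (AT2G24980) was at 0.303, 0.298 and 0 CPM at 0 h, at 0 CPM in all CIM libraries and at 143, 150 and 111 CPM after SIM, a 676-fold higher level with a counting interval from 187 to 5591. AT4G08410 had 0 counts before SIM and 102, 108 and 76.8 CPM after it, at least 320-fold higher. Its neighbour AT4G08400 was at 82.5, 84.2 and 64.9 CPM after SIM, at least 259-fold higher. EXT13 went from 0.606, 0 and 0 CPM to 66.6, 80.9 and 62.2 CPM, and LRX1, a chimeric leucine-rich repeat extensin of root hairs, from 0, 0.596 and 0.293 CPM to 73.5, 64.1 and 50.9 CPM. PRP1, a proline-rich wall protein, had 0 counts before SIM and 59.8, 57.1 and 42.3 CPM after it, at least 178-fold higher. These repetitive genes share sequence, and the sources used here do not give the rule for reads that match several of them, so the split between them is uncertain.

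The extensin-like genes AT3G54580, AT3G28550 and HRGP1 were among the 8 largest rises in CPM and took another course. AT3G54580 stood at 41.2, 28.9 and 3.51 CPM at 0 h, at no more than 0.241 CPM after CIM and at 351, 375 and 306 CPM after SIM. AT3G28550 stood at 20.3, 53.0 and 2.34 CPM at 0 h and at 300, 302 and 256 CPM after SIM. HRGP1 stood at 4.24, 10.4 and 1.17 CPM at 0 h and at 234, 258 and 201 CPM after SIM. In all 3 genes the third 0 h library was the lowest of its group. The SIM libraries lay above all 0 h libraries, and 79.6% of all genes tested had groups without overlap. The other large rises in CPM were AT3G22142, a proline-rich lipid transfer-like protein (31.4 ± 9.84 to 397 ± 8.23 CPM, SD, n = 3), HK1, an osmosensing histidine kinase (215 ± 22.5 to 531 ± 19.4 CPM), NET1A, an actin-binding protein (45.9 ± 8.42 to 305 ± 6.08 CPM), the glycosyltransferase UGT73B5 (66.7 ± 8.29 to 286 ± 19.9 CPM) and CHS, which is described with the flavonoid genes.

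**Figure D2:**
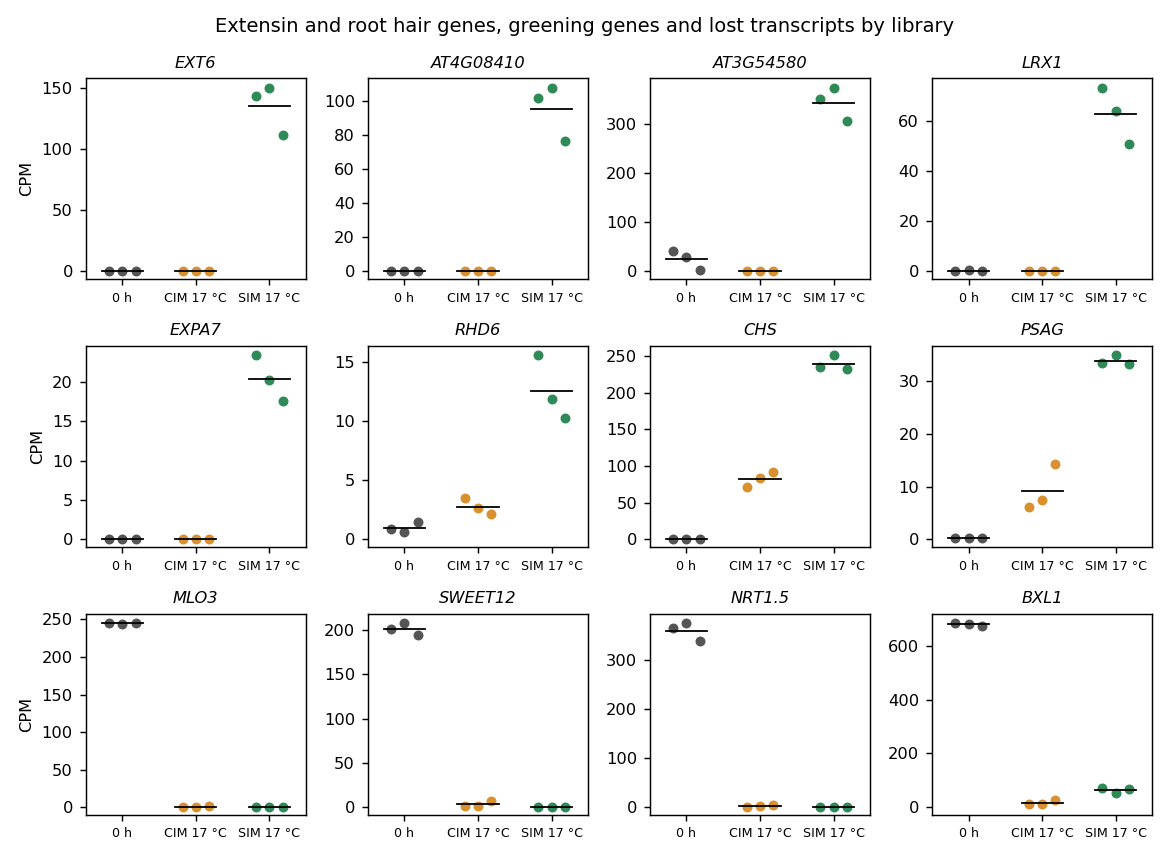
Levels in CPM (linear axes from 0) of 12 genes in the 3 libraries of each group, as points, with the group mean as a bar. The 4 extensin genes, EXPA7 and RHD6 are at or near 0 until SIM, with the exception of AT3G54580 at 0 h, while MLO3, SWEET12, NRT1.5 and BXL1 fall by the end of CIM.

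Regulators of shoot meristems and organ boundaries were switched on in part. Of 22 genes listed, 19 were tested, and 8 rose and 3 fell at least 2-fold, with a median log2 change of 1.08, or 0.70 in a fit of the 6 libraries alone. On CIM 5 rose and 3 fell at least 2-fold, and on SIM 6 rose and 1 fell. WUS (AT2G17950, chromosome 2), which specifies the stem cell niche of the shoot, had 0 counts at 0 h and after CIM and stood at 5.91, 4.60 and 5.38 CPM after SIM. That is at least 17.9-fold higher (adjusted p = 7.24e-09). CUC1 and CUC2, NAC factors that mark the boundary of organs and precede meristem formation, rose as well. CUC2 went from 0.303, 0 and 0 CPM at 0 h through 35.5, 30.8 and 22.2 CPM after CIM to 46.8, 49.2 and 48.9 CPM after SIM. CUC1 went from 0.606, 0 and 0.878 CPM to 4.49, 4.87 and 6.36 CPM (log2 3.32 ± 0.45, adjusted p = 5.3e-08). RAX1, a MYB factor of axillary meristems, went from 0.606, 0 and 0.293 CPM to 38.0, 35.7 and 33.5 CPM, most of it on SIM.

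Other genes of this group stayed near 0 or fell. STM, the homeobox gene that keeps meristem cells undifferentiated, had 1 count over the 0 h group and 1 over the SIM group, both under the floor of 3 counts. CLV3, the peptide signal of shoot stem cells, was at 0 counts at 0 h and at 0.709, 0.271 and 0.245 CPM after SIM and was left untested by the filter. LSH4, a boundary gene, was at 0.303, 0.596 and 0 CPM at 0 h and at 0.945, 0 and 0.979 CPM after SIM, groups that overlap (adjusted p = 0.306). CYP78A5, a cytochrome P450 of organ boundaries, rose from 0 counts to 0.945, 0.271 and 0.979 CPM, at least 2.52-fold (adjusted p = 0.0109). With 0 h library 2 as the only 0 h library, that call was lost (adjusted p = 0.141). CLV1, the receptor of the CLV3 signal, fell from 86.9, 102 and 88.9 CPM to 18.4, 17.0 and 17.9 CPM (log2 -2.37 ± 0.09, adjusted p = 2.19e-22). RAX2, a relative of RAX1, fell from 96.0, 87.3 and 86.3 CPM to 30.5, 34.6 and 31.3 CPM.

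Among wound and regeneration factors, 4 of 7 genes tested rose and 1 fell at least 2-fold, with a median log2 change of 2.1. ESR1, an AP2/ERF factor that promotes shoot regeneration, was at 0, 0.596 and 0 CPM at 0 h, at 2.91, 2.88 and 3.14 CPM after CIM and at 10.4, 11.1 and 13.7 CPM after SIM. ESR2, its closest relative, had 0 counts at 0 h, after CIM and after SIM at 17 °C. The NAC genes ANAC071 and ANAC096, which act in tissue reunion after cutting, rose from 3.46 ± 1.44 to 46.5 ± 4.01 CPM and from 12.8 ± 0.56 to 62.7 ± 2.91 CPM (SD, n = 3). WIND1, an AP2/ERF factor that drives callus at wounds, fell from 237, 231 and 230 CPM to 162, 175 and 159 CPM (log2 -0.50 ± 0.05, adjusted p = 2.24e-10). The zinc finger gene ZAT6 fell from 31.6 ± 4.96 to 10.2 ± 2.23 CPM. Of 13 genes tested for leaf primordia and polarity, 4 rose and 1 fell at least 2-fold. AN3, a coactivator of leaf cell proliferation, rose from 1.51, 2.68 and 2.93 CPM to 62.8, 60.6 and 61.4 CPM, a level reached by the end of CIM (71.5, 67.3 and 63.7 CPM). KAN1, a factor of the lower leaf side, fell from 41.7 ± 4.79 to 19.1 ± 0.872 CPM.

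Root-type callus genes rose on CIM and mostly fell on SIM, and they ended on both sides of their 0 h level. Of 17 genes tested, 13 rose and 0 fell at least 2-fold on CIM, 0 rose and 12 fell on SIM, and the net change held 7 rises and 6 falls, with a median log2 change of 0.18. Without 0 h library 3 that median was 0.55. PLT1, a PLETHORA factor of root stem cells, was at 1.82, 2.08 and 4.39 CPM at 0 h, at 95.1, 87.5 and 82.3 CPM after CIM and at 8.98, 5.41 and 5.63 CPM after SIM. The net change of PLT1 was 1.27 ± 0.28 on the log2 scale (adjusted p = 0.000177). PLT2 followed a like course and ended at 2.60, 2.98 and 3.18 CPM against 0.606, 2.68 and 3.80 CPM at 0 h, groups that overlap (adjusted p = 0.488). PLT1 and PLT2 are similar in sequence. WOX5, the WUS relative of the root stem cell niche, was at 5.45, 5.96 and 4.39 CPM at 0 h, at 52.6, 44.9 and 42 CPM after CIM and at 0.945, 1.08 and 0.489 CPM after SIM. LBD16 and LBD29, targets of auxin in lateral root founder cells, ended below their 0 h level. LBD16 went from 54.2, 49.7 and 44.8 CPM to 5.67, 9.20 and 10.3 CPM, and LBD29 from 15.7, 18.5 and 13.5 CPM to 8.27, 7.85 and 5.14 CPM. SCR and JKD, regulators of root ground tissue, fell from 125 ± 7.2 to 41.2 ± 2.27 CPM and from 122 ± 1.06 to 31.1 ± 0.535 CPM.

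WOX11 and the PLETHORA genes PLT3, PLT5 and PLT7 ended above their 0 h level. WOX11, which starts root founder cells at wounds, went from 0.908, 0 and 0.293 CPM at 0 h to 46.8, 56.9 and 49.0 CPM after CIM and 80.3, 77.4 and 83.0 CPM after SIM, 188-fold over 0 h (log2 7.55 ± 0.22, adjusted p = 3.47e-23). PLT3 stood at 29.7, 34.0 and 43.6 CPM at 0 h and at 171, 179 and 190 CPM after SIM. PLT5 stood at 26.3, 24.1 and 23.7 CPM at 0 h and at 52.0, 56.3 and 55.1 CPM after SIM. PLT7 rose from 4.97 ± 0.758 to 58.1 ± 3.28 CPM. The groups did not overlap in these 4 genes, as in 79.6% of all genes tested.

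**Figure D3:**
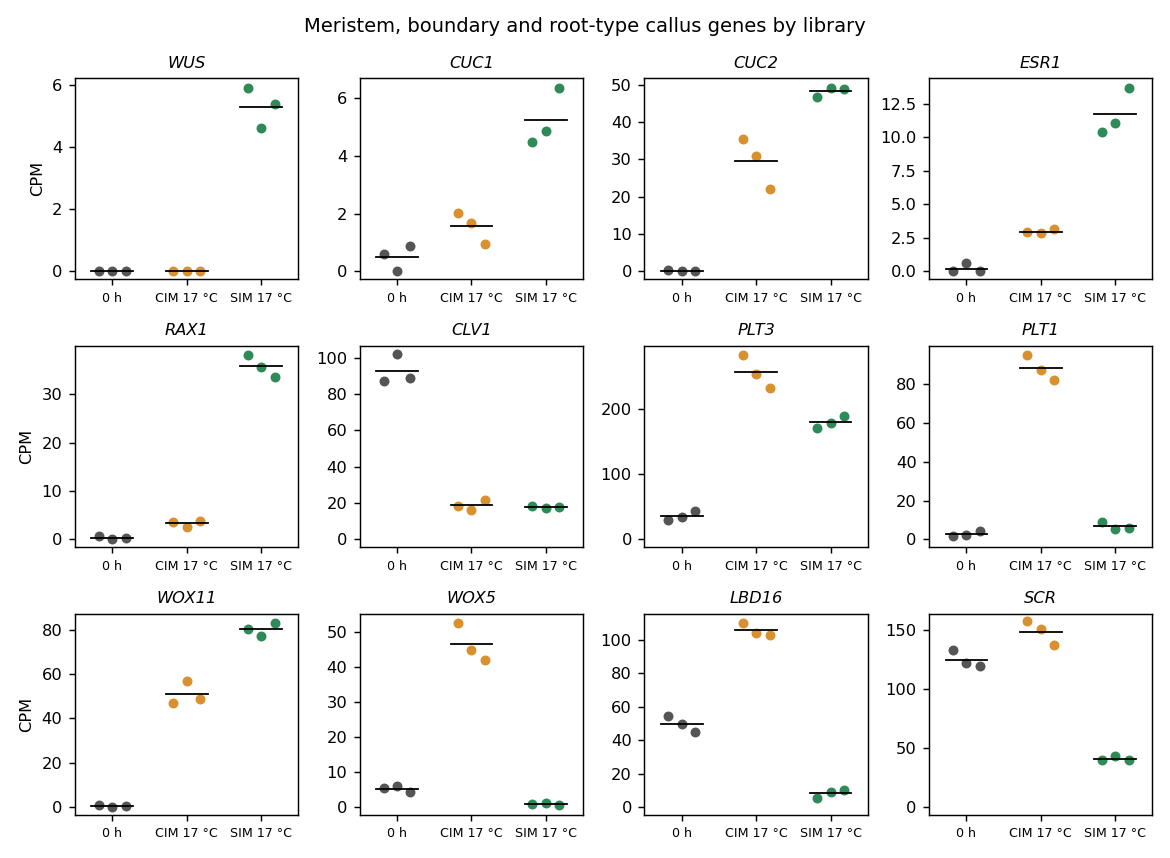
Levels in CPM (linear axes) of 12 regeneration genes in the 3 libraries of each group, as points, with the group mean as a bar. WUS is seen after SIM alone (4.60 to 5.91 CPM), CUC2 and WOX11 are high after both media, and PLT1, WOX5 and LBD16 peak after CIM.

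Cytokinin genes moved in both directions, and the members named below are examples that do not stand for all genes of their kind. Of 28 tested, 10 rose and 6 fell at least 2-fold, with a median log2 change of 0.29. ARR15, a type-A response regulator that cytokinin induces and that dampens the response, went from 0.908, 0.894 and 0.585 CPM at 0 h through 6.10, 5.77 and 5.79 CPM after CIM to 47.0, 49.2 and 46.0 CPM after SIM (log2 5.84 ± 0.18, adjusted p = 5.65e-24). ARR5 of the same type moved little, from 89.0, 93.8 and 95.4 CPM to 111, 103 and 104 CPM (log2 0.19 ± 0.05, adjusted p = 0.00306). Without 0 h libraries 1 and 3 that call was lost (adjusted p = 0.0575). CKX3 and CKX1 encode oxidases that degrade cytokinin. CKX3 rose from 0.303, 1.79 and 0.878 CPM to 195, 215 and 205 CPM, 200-fold, and CKX1 from 9.08, 12.8 and 8.19 CPM to 125, 123 and 121 CPM, 12.3-fold. The synthesis genes IPT3, IPT5, IPT7 and LOG1, named after their values were seen, fell to means of 1.87, 0.248, 0 and 0 CPM from 88.9, 11.5, 11.4 and 15.6 CPM. AHK3, a cytokinin receptor, fell from 316 ± 10.2 to 159 ± 2.14 CPM.

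Auxin synthesis genes were mostly lower. Of 12 tested, 2 rose and 6 fell at least 2-fold, with a median log2 change of -1.12. YUC2, a flavin monooxygenase that makes IAA, fell from 36.6, 34.8 and 32.5 CPM to 0.236, 0 and 0 CPM, and YUC9 fell from 26.0, 26.8 and 21.4 CPM to 0.945, 0.541 and 0.489 CPM. YUC6 fell from 88.3 ± 2.4 to 35.7 ± 5.25 CPM. The nitrilase gene NIT2 rose from 51.2, 35.4 and 31.9 CPM to 163, 180 and 171 CPM. Of 27 auxin response genes, 6 (22.2%) rose and 4 (14.8%) fell at least 2-fold, although 11 had risen on CIM. Of 17 auxin transport genes, 4 rose and 2 fell. PID, a kinase that sets the polarity of auxin carriers, rose 5.8-fold (log2 2.54 ± 0.07, adjusted p = 7.56e-25), and the carrier PIN6 from 9.01 ± 2.3 to 84.7 ± 4.73 CPM. PILS2 and PILS5, carriers of the endoplasmic reticulum, fell from 122 ± 4.73 to 34.2 ± 1.1 CPM and from 257 ± 7.13 to 79.9 ± 6.54 CPM.

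Brassinosteroids are steroid hormones of cell expansion, and their genes were lower together. Of 22 tested, 0 rose and 13 fell at least 2-fold, with a median log2 change of -1.20, and 11 of the 22 fell by this much on CIM. ROT3, a cytochrome P450 of hormone synthesis, fell from 258, 243 and 227 CPM to 36.9, 31.9 and 36.5 CPM (log2 -2.78 ± 0.06, adjusted p = 5.71e-29). CPD, another enzyme of the pathway, fell from 147, 146 and 145 CPM to 43.5, 48.4 and 40.9 CPM. BRI1, the receptor, fell from 430, 411 and 400 CPM through 293, 284 and 273 CPM after CIM to 140, 144 and 140 CPM. IBH1, an inhibitor of growth that the hormone represses, fell from 136 ± 6.76 to 32.3 ± 1.78 CPM.

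Genes of abscisic acid, the hormone of drought and dormancy, were mostly lower too. The hormone itself was not measured. Of 18 response and turnover genes tested, 1 rose and 12 fell at least 2-fold, with a median log2 change of -1.15. NCED3, which makes the hormone's precursor under drought, fell from 99.9, 107 and 92.5 CPM to 1.42, 2.16 and 2.45 CPM, 49.2-fold. RD29B, whose promoter is shown above with its ACGTGG matches, fell from 241, 207 and 202 CPM at 0 h to 0 CPM in all CIM libraries and 0.473, 0 and 0 CPM after SIM. That is 1301-fold lower, with a counting interval from 360 to 10752. RD22 fell from 319 to 36.5 CPM on average, and ABF3 and ABI1, a factor and a phosphatase of the signalling chain, fell 2.66-fold and 2.45-fold. CYP707A4, a hydroxylase that inactivates abscisic acid, was among the 15 largest rises, from 0, 0.298 and 0.293 CPM to 60.5, 54.4 and 52.4 CPM. In 0 h library 2, where the seed maturation transcripts were low, RD29B stood at 207 CPM and NCED3 at 107 CPM, within or above the range of the other 0 h libraries.

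Of 14 jasmonate genes tested, 0 rose and 6 fell at least 2-fold. AOS, an enzyme of synthesis, fell from 117, 113 and 125 CPM to 25, 29.2 and 27.2 CPM, and MYC2, the master transcription factor, from 250, 248 and 268 CPM to 69.9, 63.0 and 75.6 CPM. Of 13 salicylate and defence genes, 5 rose and 0 fell. PAD3, the last enzyme of camalexin synthesis, rose from 4.85, 2.68 and 5.85 CPM to 65.4, 68.2 and 70.7 CPM. Of 19 ethylene genes, 2 (10.5%) rose and 4 (21.1%) fell. The risers were ACS2 and ACS8, isoforms of the enzyme that makes the ethylene precursor, at 14.5-fold and 116-fold. Of 23 gibberellin genes, 5 rose and 5 fell. GA1, the first enzyme of synthesis, rose from 0, 0 and 0.293 CPM to 20.8, 19.5 and 20.3 CPM, and GAI, a repressor of the response, fell from 46.5 to 11.3 CPM on average.

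Genes of the photosynthetic apparatus rose from a low level. Of 36 nuclear photosystem and Rubisco genes tested, 26 rose and 1 fell at least 2-fold, with a median log2 change of 2.55. Their summed level was 443 to 495 CPM at 0 h, 378, 395 and 731 CPM in the 3 CIM libraries and 1211 to 1263 CPM after SIM, so the third CIM library stood apart. PSAG, a subunit of photosystem I, was at 0.303, 0.298 and 0.293 CPM at 0 h, at 6.10, 7.45 and 14.2 CPM after CIM and at 33.5, 34.9 and 33.3 CPM after SIM. PETE2, plastocyanin, rose from 0.908, 0.596 and 1.17 CPM to 43.5, 39.8 and 46.0 CPM, 46.8-fold. PSBY, of photosystem II, rose from 2.12, 2.08 and 0.878 CPM to 44.2, 49.2 and 51.4 CPM. LHCA1, an antenna protein, rose 8.82-fold. The 1 fall was LHCB4.2, an antenna protein, named after its values were seen, from 26.6 to 8.98 CPM on average. Over all 18 chlorophyll a-b binding proteins tested, 13 rose and 2 fell, LHCB4.3 among the falls (47.0 ± 1.14 to 13.3 ± 1.2 CPM). Reads of the nearly identical LHCB genes cannot be assigned with certainty.

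Regulators of greening did not all follow. Of 19 tested, 9 rose and 3 fell at least 2-fold. PORB, an enzyme of chlorophyll synthesis, rose 11.8-fold to 40 ± 0.46 CPM. The symbol CAO had matched AT2G47450, annotated as a chloroplast signal recognition particle component and not as an enzyme of that synthesis. It is counted among the rises of the list and rose 9.25-fold to 30.6 ± 1.92 CPM. GLK2, a transcription factor that drives chloroplast genes, fell from 46.9, 46.2 and 44.5 CPM to 2.60, 1.62 and 2.2 CPM. The GATA factor GNL, named after its values were seen, had 0 counts at 0 h and 19.4 CPM on average after SIM, at least 65.1-fold higher. Of 24 light signalling genes, 6 rose and 7 fell. HFR1, a factor of light signalling, fell from 139, 138 and 140 CPM to 8.74, 8.39 and 10.8 CPM. PIF4, which promotes growth in the dark and in warmth and was named after its values were seen, fell from 49.7 to 0.236 CPM on average. HYH, a relative of the light factor HY5, rose from 1.51, 1.19 and 0.585 CPM to 40.9, 35.7 and 40.6 CPM, and ELIP1, a protein that light stress induces, from 0.303, 0.298 and 0 CPM to 79.4, 78.7 and 80.8 CPM.

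Flavonoid synthesis held the steepest single rise by the ratio of levels. Of 15 genes listed, 9 were tested, and 8 rose and 0 fell at least 2-fold, with a median log2 change of 2.31. CHS (AT5G13930, chromosome 5, 4488688 to 4490264), the entry enzyme, was at 0, 0.596 and 0 CPM at 0 h, at 71.5, 83.6 and 91.7 CPM after CIM and at 235, 251 and 232 CPM after SIM. The ratio of SIM to 0 h was 1202, with a counting interval from 333 to 9933 that covers counting error only, as all such intervals here do. FLS1, which makes flavonols, went from 0.606, 0 and 0.293 CPM to 105, 105 and 107 CPM. MYB12, an activator of flavonol genes, rose 12.4-fold and TT5, chalcone isomerase, 4.1-fold. The enzymes of the later anthocyanin branch, DFR and LDOX, and the regulator TT8 stayed at or below 0.399 CPM on average in both groups and were not tested. UGT78D2, a flavonoid glucosyltransferase, rose from 14.8, 14.3 and 13.5 CPM to 98.3, 102 and 98.1 CPM. Lignin monomer genes changed little by comparison, with 1 rise and 1 fall among 12. The riser was 4CL3, the isoform of 4-coumarate ligase that serves flavonoids, at 14.7-fold, and PAL4 fell 2.69-fold.

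**Figure D4:**
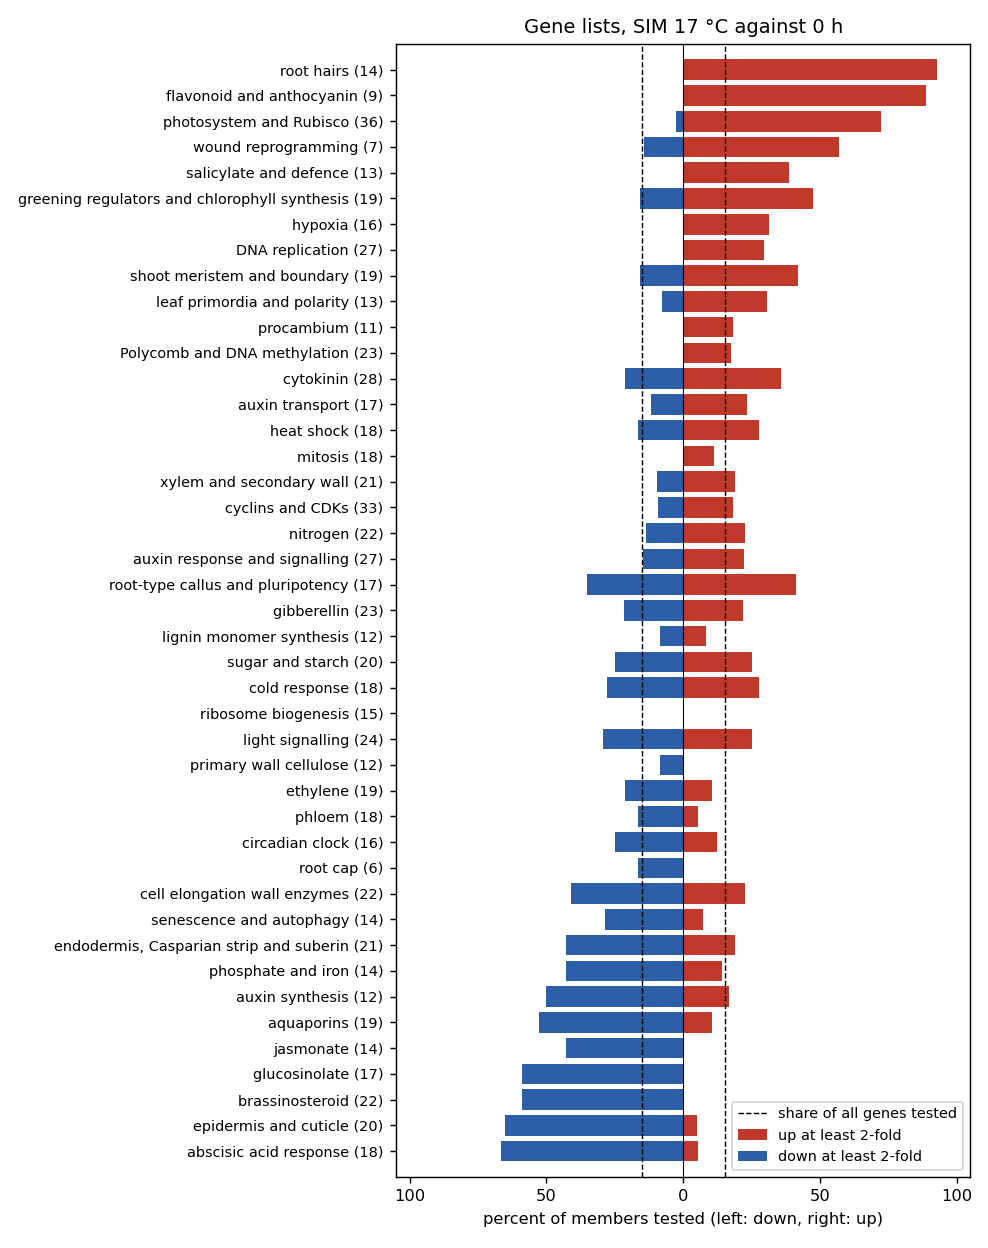
Percent of the tested members of each gene list (number in brackets) that rose (right) or fell (left) at least 2-fold between 0 h and SIM at 17 °C, for lists with 6 or more members tested. The dashed lines mark the shares over all genes tested, 15.3% up and 15.1% down, and the root hair, flavonoid and photosystem lists lie farthest to the right.

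The 15 steepest falls by the ratio of levels held several transporters. MLO3, a membrane protein, went from 245, 244 and 245 CPM at 0 h to 0.291, 0.481 and 1.21 CPM after CIM and 0.473, 0 and 0.245 CPM after SIM, 979-fold lower with a counting interval from 335 to 4751. SWEET11 and SWEET12, the sugar exporters that load the phloem, fell from 230, 238 and 225 CPM to 0, 0.271 and 0 CPM and from 201, 208 and 195 CPM to 0 CPM in all SIM libraries. For SWEET12 that is at least 806-fold lower. NRT1.5, a nitrate transporter that loads the xylem, fell from 365, 375 and 339 CPM to 0.709, 0.812 and 0.734 CPM, 461-fold. The amino acid exporters SIAR1 and UMAMIT17 fell 536-fold and 461-fold. Most of each fall had taken place by the end of CIM, when none of these 6 genes was above 6.76 CPM in any library. The third CIM library was the highest of its group for all 6.

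The remaining genes of the 15 steepest falls were RD29B, the water channels TIP2;2 and TIP2;3, KCS19, AT4G19380, AT5G19890, MYB48, AT2G10940 and SCPL13. KCS19, a fatty acid elongase, fell from 143, 136 and 93.0 CPM to 0 counts after CIM and after SIM, at least 496-fold. AT4G19380, a long-chain fatty alcohol dehydrogenase, fell from 132, 132 and 95.7 CPM to 0.236, 0.271 and 0 CPM. The peroxidase AT5G19890 fell from 125, 117 and 106 CPM to 0 CPM, at least 465-fold, and the MYB factor MYB48 from 98.1, 104 and 84.3 CPM to 0 CPM, at least 382-fold. In all, 94 genes with at least 10 counts in every 0 h library had 0 counts after SIM, and 36 of them had 0 counts after CIM too. In 3 of the 94, the second 0 h library held under 20% of the count of both others, as the seed maturation transcripts do. The reverse, 0 counts at 0 h and at least 10 in every SIM library, was met by 72 genes, of which 21 also had 0 counts after CIM.

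Of 19 aquaporin genes listed and tested, 2 rose and 10 fell at least 2-fold, with a median log2 change of -1.17. Over all 26 annotated aquaporins tested, 5 (19.2%) rose and 10 (38.5%) fell, and the median was nearer to no change, at -0.46. Aquaporins carry water across the plasma membrane (PIP) and the vacuole membrane (TIP). TIP2;3 fell from 172, 165 and 168 CPM to 0 CPM, at least 673-fold, and TIP1;1 from 187, 179 and 167 CPM through 2.62, 3.12 and 3.62 CPM after CIM to 7.56, 7.85 and 7.59 CPM. PIP2B fell from 247, 239 and 233 CPM to 15.6, 14.9 and 15.7 CPM (log2 -3.96 ± 0.06, adjusted p = 1.56e-31), and PIP1A fell 5.18-fold. On CIM 13 of the 19 fell at least 2-fold and 1 rose.

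Among the largest falls in CPM were enzymes that trim wall polymers. BXL1, a xylosidase and arabinosidase, went from 686, 684 and 676 CPM at 0 h through 11.3, 13.0 and 26.3 CPM after CIM to 72.3, 53.3 and 66.3 CPM after SIM. XYL4 took the same course and ended at 83.0 ± 10 CPM against 511 ± 17.8 CPM at 0 h. The galactosidase BGAL4 fell from 470, 467 and 451 CPM to 4.96, 3.52 and 5.14 CPM, and the pectin methylesterase ATPMEPCRD from 426, 427 and 399 CPM to 1.18, 1.08 and 1.71 CPM. AT5G40450 had the largest fall in CPM, from 1402 ± 13.4 to 357 ± 13.1 CPM, and AT2G32240 and the transporter PEN3 fell 2.32-fold and 1.88-fold. Of 22 wall enzymes of cell elongation, 5 rose and 9 fell at least 2-fold. The xyloglucan enzymes XTH15 and XTH24 fell 36.0-fold and 5.23-fold, and the expansins EXPA10 and EXPA1 rose from 6.36, 4.17 and 5.56 CPM to 109, 118 and 115 CPM and from 46.3, 57.5 and 60.3 CPM to 203, 221 and 206 CPM. Over all annotated expansins, 9 rose and 6 fell among 23, and over all XTH genes 5 rose and 8 fell among 23. Of 12 genes of primary wall cellulose, 0 rose and 1 fell at least 2-fold, and CESA6, a synthase subunit, fell from 379 ± 17.1 to 238 ± 6.89 CPM.

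Of 20 genes of epidermis and cuticle tested, 1 rose and 13 fell at least 2-fold, with a median log2 change of -1.33, and the list's sum went from 1444 to 1587 CPM at 0 h to 450 to 473 CPM after SIM. CER6, an elongase that makes wax, fell from 384, 379 and 360 CPM through 124, 111 and 97.7 CPM after CIM to 52.0, 49.8 and 47.2 CPM. ATML1, the homeodomain factor of epidermal identity, fell from 71.8, 65.2 and 63.2 CPM to 10.9, 8.12 and 8.81 CPM, and its relative HDG2 from 55.8 to 4.84 CPM on average. KCS1 fell 4.61-fold. On SIM 11 of the 20 fell at least 2-fold and 1 rose. Of 56 genes tested with lipid transfer protein in their annotation, 14 rose and 28 fell. The annotation also names inhibitors and seed storage albumins, and not all of these genes need act in the cuticle. Of 13 stomatal genes, 9 were untested. ICE1, which acts in stomatal lineage and in cold response, fell from 60.3, 50.6 and 54.1 CPM to 36.4, 37.3 and 44.5 CPM (log2 -0.48 ± 0.08, adjusted p = 3.71e-06).

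Phloem genes ended near their 0 h level after a dip. Of 18 phloem genes, 1 rose and 13 fell at least 2-fold on CIM, 10 rose and 2 fell on SIM, and the net change held 1 rise and 3 falls. The list's sum was 1799 to 1958 CPM at 0 h, 862 to 892 CPM after CIM and 1679 to 1689 CPM after SIM. The 3 net falls were SWEET11, SWEET12 and PP2-A1, a phloem lectin, which fell from 73.0, 75.9 and 71.4 CPM to 35.9, 34.1 and 36.5 CPM. OPS and SMXL5, regulators of early phloem, rose 1.64-fold and 1.9-fold. Of 21 xylem genes, 4 (19%) rose and 2 (9.52%) fell. VND1, a NAC factor of vessel formation, rose from 4.24, 4.17 and 5.27 CPM to 44.9, 45.2 and 50.2 CPM, and LAC4, a lignin laccase, fell from 209 ± 6.87 to 90.2 ± 1.11 CPM. WOX4, which maintains cambium stem cells, rose from 22.1, 20.8 and 25.2 CPM to 74.2, 76.8 and 76.4 CPM. Of 21 endodermal genes, 4 rose and 9 fell. PER64, a peroxidase of the Casparian strip, fell from 54.2, 73.3 and 54.4 CPM to 8.98, 7.04 and 7.34 CPM after near absence on CIM (0, 0 and 0.241 CPM), and ABCG2, an exporter for suberin, rose from 44.6 ± 0.412 to 109 ± 7.9 CPM.

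**Figure D5:**
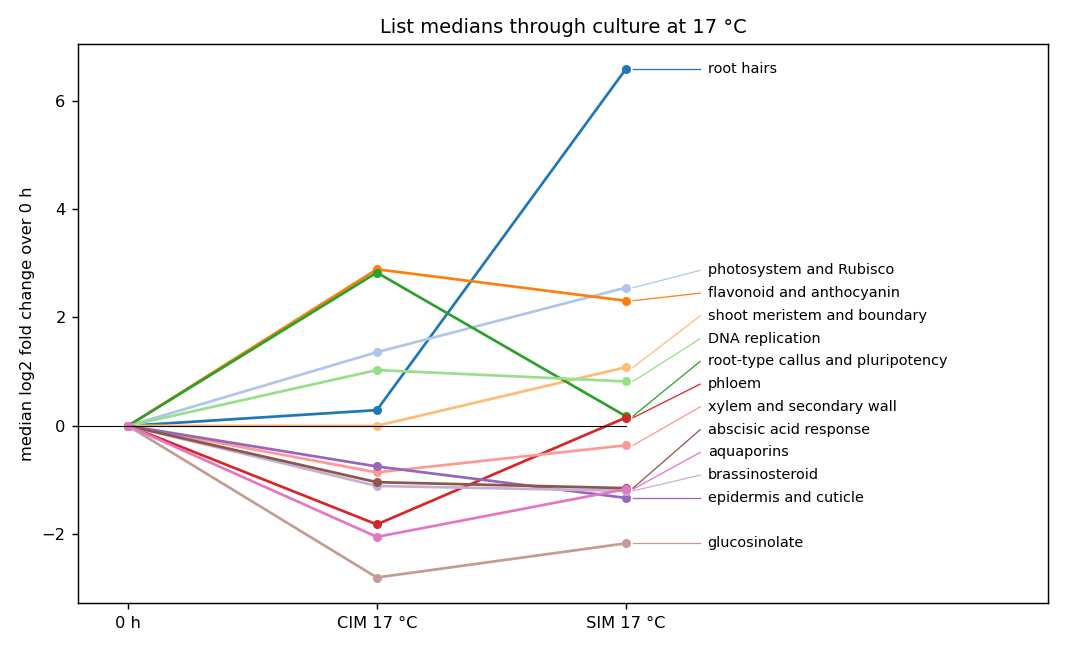
Median log2 fold change over 0 h (vertical axis) of the tested members of 13 gene lists after CIM and after SIM at 17 °C, each line starting at 0 for the 0 h explants. The median of root-type callus genes is 2.83 after CIM and 0.18 after SIM, over 7 net rises and 6 net falls of at least 2-fold among 17 genes, the phloem median is -1.82 and then 0.15, and the root hair median reaches 6.58 after SIM.

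Of 27 DNA replication genes, 8 (29.6%) rose and 0 fell at least 2-fold, with a median log2 change of 0.82, and on CIM 15 had risen. MCM3, a subunit of the replicative helicase, rose from 39.4, 37.5 and 42.1 CPM to 87.2, 86.0 and 86.6 CPM (log2 1.13 ± 0.06, adjusted p = 4.79e-17). Of 18 mitosis genes, 2 rose and 0 fell, a share of rises under that over all genes. POK1, a kinesin that orients cell division, rose 2.00-fold. Of 33 cyclins, kinases and their inhibitors, 6 rose and 3 fell, a share of rises near that over all genes, and the list's sum was 1168 to 1185 CPM at 0 h and 1183 to 1203 CPM after SIM. CYCD1;1 fell from 98.7, 93.2 and 79.6 CPM to 16.5, 15.2 and 16.6 CPM, and CYCA2;3 rose 2.79-fold. Of 253 ribosomal protein genes, 14 (5.53%, under the share over all genes) rose and 2 fell at least 2-fold, with a median log2 change of 0.25. Of 23 Polycomb and DNA methylation genes, 4 rose, near the share over all genes, and 0 fell. CMT2, a methyltransferase, rose from 25.1, 25.6 and 31.6 CPM to 101, 102 and 106 CPM. DNA methylation itself was not measured.

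Metabolic and stress lists moved in several directions. Of 17 glucosinolate genes, 0 rose and 10 fell at least 2-fold, with a median log2 change of -2.17, and on CIM all 17 fell by this much. MYB51 and MYB122, activators of indole glucosinolates, fell from 82.5 to 18.4 CPM and from 18.3 to 0.172 CPM on average, while CYP79B3, which makes their precursor, had dipped to 22.4, 31.2 and 33.5 CPM after CIM and stood at 106, 109 and 108 CPM after SIM against 205, 209 and 221 CPM at 0 h. Of 18 cold response genes, 5 rose and 5 fell at 17 °C. COR6.6, a small cold-induced protein, rose from 6.06, 5.66 and 5.56 CPM to 65.2, 71.4 and 67.1 CPM, and the dehydrin gene COR47 fell from 265, 259 and 250 CPM to 99.5, 107 and 104 CPM. Of 18 heat shock genes, 5 rose and 3 fell. Of 16 clock genes, 2 (12.5%) rose and 4 (25%) fell, and PRR7 fell 3.32-fold. Samples at a single time of day do not show a rhythm.

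Of 20 sugar and starch genes, 5 rose and 5 fell. DIN10, which sugar starvation induces, fell from 463, 446 and 466 CPM to 138, 134 and 130 CPM, and the sucrose carrier SUC1 rose from 40.6, 45.3 and 51.8 CPM to 205, 225 and 215 CPM. Of 22 nitrogen genes, 5 (22.7%) rose and 3 (13.6%) fell. NRT1.1, a nitrate carrier and sensor, fell from 214, 222 and 193 CPM to 36.9, 37.1 and 34.5 CPM. Of 14 phosphate and iron genes, 2 rose and 6 fell. PHO1, which loads phosphate into the xylem, fell from 220, 233 and 187 CPM to 31.7, 35.2 and 35.0 CPM. Of 16 hypoxia genes, 5 rose and 0 fell, with ADH1, alcohol dehydrogenase, up 2.36-fold.

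Large enzyme families were remodelled. Of 152 cytochrome P450 genes tested, 32 rose and 63 fell at least 2-fold, with a median log2 change of -0.56, or -0.30 with 0 h library 2 as the only 0 h library. CYP705A1 fell from 103, 86.4 and 90.4 CPM to 0.473, 0.541 and 0.245 CPM. Of 107 UDP-glycosyltransferases, 41 rose and 22 fell. AT2G22590 of this family was among the 15 steepest rises, from 0, 0.298 and 0 CPM at 0 h through 1.45, 1.68 and 3.14 CPM after CIM to 72.8, 72.2 and 72.9 CPM. Of 57 class III peroxidases, 22 rose and 15 fell, with AT2G18150 up from 25.4, 25 and 26.0 CPM to 175, 195 and 183 CPM. Of 51 WRKY factors, 18 rose and 8 fell, and of 46 glutathione S-transferases 11 rose and 3 fell. Of 35 SAUR genes, small proteins of auxin-driven growth, 8 rose and 14 fell. HIS1-3, a linker histone that drought induces, fell from 135, 134 and 135 CPM to 16.3, 14.3 and 16.6 CPM. The histone family as a whole held 5 rises (11.9%) and 2 falls (4.76%) among 42, both under the shares over all genes.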

How the data were processed

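RNA-seq libraries of 15 samples in 5 groups of 3 were in the deposited table, and the 6 libraries of 0 h and of SIM at 17 °C were compared. The authors deposited whole-number counts per gene without normalization, which may be of distinct read positions and not of all reads. FastQC 0.11.7, Bowtie2 2.3.4.3, SAMtools 1.9, bedtools 2.26.0 and the TAIR10 build are named per the submitters' processing notes. The sources used here do not give the rules for strands, repeated reads or reads with several matches. Every count column belonged to a sample of the series, and 0 were left over.

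Of the genes in the table, 20704 passed edgeR's filter on low counts. All 15 libraries were fitted together with TMM scaling and edgeR's quasi-likelihood test (edgeR 4.0.16, limma 3.58.1, R 4.3.3), with Benjamini-Hochberg adjustment and a threshold of 0.05. The common dispersion was 9.77e-05, close to counting noise. The code was tested on simulated counts with a larger dispersion and far fewer changed genes than these data. That test bears on the code and not on the calls made here. A group with 0 counts was set to a floor of 3 counts over the group for an at-least fold. With 1 to 3 counts in a group, a ratio has an exact 95% Poisson interval, which covers counting error only, since reads amplified by PCR and carrying no molecular identifier need not be separate molecules. Promoters were the 250 bases upstream, searched on both strands. Python 3.11.15, pandas 2.3.3, numpy 2.4.6 and matplotlib 3.10.9 were used.

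The groups, the gene lists and the genes to name were chosen with earlier results of these data known. Named genes were the 15 largest changes and the 8 largest changes in CPM in each direction (mean of at least 2 CPM, groups without overlap, called without any 1 library), up to 4 called members of smallest p in each list, and 20 regeneration genes. Others are marked as named after their values were seen, apart from members given to account for a list. Alternatives were DESeq2 1.42.0 and its size factors, no filter or a stricter one (10 counts in 3 libraries), a replicate block, the 6 libraries alone, a 1 log2 threshold, a correction for positions counted once, 0 h library 2 alone and each library left out.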

Additional observations from a re-analysis of the deposited data

Results flagged for a closer look

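The net change shares its 0 h libraries with that at 27 °C, so the direct difference between SIM at 17 °C and SIM at 27 °C is the difference between the net changes. It was tested for 18 of the 20 regeneration genes in edgeR's quasi-likelihood fit, with p adjusted over all genes, and 15 genes are listed here because that difference passed the threshold of 0.05. Values are log2 differences, 17 °C minus 27 °C, with their standard error. Shoot meristem and boundary genes were lower at 17 °C. WUS differed by -1.46 ± 0.21 (adjusted p = 2.72e-06), CUC1 by -2.70 ± 0.16, CUC2 by -0.57 ± 0.08, LSH4 by -4.90 ± 0.35 and CYP78A5 by -5.73 ± 0.28. Where a group held 1 to 3 counts the fitted value depends on the prior count, and the ratio with its 95% counting interval is given with it. STM held 1 count over the group at 17 °C and 90 at 27 °C, a fitted difference of -5.92 and a ratio of 82.7 (14.5 to 3303). Among genes of the root-type callus, PLT1 (4.33 ± 0.43), PLT2 (1.42 ± 0.41), WOX5 (fitted 2.23, from 10 counts against 2, ratio 5.44, interval 1.16 to 51.1), LBD29 (fitted 4.77, from 85 counts against 3, ratio 30.8, interval 10.2 to 152) and SCR (0.68 ± 0.09) were higher at 17 °C, and LBD16 (-0.82 ± 0.16) and PLT5 (-0.20 ± 0.06) were lower. WIND1 differed by -0.14 ± 0.05 and ARR5 by 0.36 ± 0.05. The difference did not pass for ESR1 (-0.20 ± 0.18, adjusted p = 0.399), PLT3 (0.14 ± 0.07, adjusted p = 0.14) and WOX11 (-0.10 ± 0.06, adjusted p = 0.214).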

How the results depend on the processing

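The count of 15842 genes called ranged from 13896 with 0 h library 2 alone to 16586 without a filter, apart from the test against a change of 1 log2 unit, which called 4682 genes, 2207 up and 2475 down, by its stricter null. Leaving out each library in turn gave 15282 to 15560. The replicate numbers were not treated as pairs, since the correlation of deviations between same-numbered libraries was -0.011, -0.0115 and 0.0491. With the replicate block 15826 genes were called. Named genes were in part chosen by a call in the main fit, and the largest changes also by a call without any 1 library. Their agreement across settings was therefore partly fixed by the choice and does not extend to the 15842 calls. Of 4001 alternative values for 286 named genes, 3998 kept direction and side of the threshold and 0 reversed. The 3 that lost their call, ARR5, CYP78A5 and SCRM2, did so with 0 h library 2 alone (adjusted p = 0.0575, 0.141 and 0.0758), a setting with fewer samples. Of 882 alternative list medians, 50 moved by more than the spread between replicates and none that was larger than that spread changed sign. The largest shift of a list median was 1.84 log2 units, more than those given next. The shoot meristem median was 0.70 with the 6 libraries alone against 1.08. The root-type callus median was 0.55 without 0 h library 3 against 0.18. With 0 h library 2 alone the elongation median was -0.33 and the endodermis median -0.39, each against -0.12, and the P450 median was -0.30 against -0.56. Without 0 h library 3 the endodermis median was -0.42. Apart from the 1 log2 test, counts of list members changed at least 2-fold moved by over 1.5 times for auxin response falls (4, range 2 to 4), gibberellin falls (5, 3 to 6), xylem falls (2, 1 to 5), phloem rises (1, 1 to 3), mitosis rises (2, 1 to 3), ribosomal protein and histone falls (each 2, 1 to 2), seed maturation and tubulin falls (each 1, 1 to 2), stomata falls (1, 0 to 1), and jasmonate rises, salicylate falls and root cap rises (each 0, 0 to 1). The cause was not tested. Medians of low lists rest on few counts, and depth limits genes under about 3 counts in a group.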
